A study of Mus musculus with 6 samples.

Results

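The genes described here are 10 regulators of the G1 phase of the cell cycle: the D-type cyclins Ccnd1, Ccnd2 and Ccnd3, their kinases Cdk4 and Cdk6, the kinase inhibitors Cdkn1b, Cdkn2a, Cdkn2b and Cdkn2c, and the retinoblastoma gene Rb1. They were picked by symbol for their role in G1, with no threshold on a measured value. Of the 10, 8 are among the 16000 genes listed in the deposited tables, and all 8 were among the 11972 genes tested. Cdkn2a and Cdkn2b are not listed in either table and were not analysed here. The tables number the listed genes 12443 (Ccnd1, on chromosome 7), 12444 (Ccnd2, 6), 12445 (Ccnd3, 17), 12567 (Cdk4, 10), 12571 (Cdk6, 5), 12576 (Cdkn1b, 6), 12580 (Cdkn2c, 4) and 19645 (Rb1, 14), with chromosomes taken from RefSeq. D-type cyclins bind CDK4 or CDK6 when growth factors are present, and the active kinases phosphorylate the RB1 protein, which then releases E2F transcription factors that drive genes of DNA replication. The INK4 inhibitors encoded by Cdkn2a, Cdkn2b and Cdkn2c bind CDK4 and CDK6, whereas p27, the product of Cdkn1b, restrains cyclin-CDK2 complexes and is known to accumulate when fibroblasts are deprived of serum. NIH3T3, an established mouse embryonic fibroblast line, is known for the loss of Cdkn2a.

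Polyadenylated RNA was sequenced from RAI16 knockout (Rai16 KO) NIH3T3 cells and from wild-type (WT) NIH3T3 cells, with 3 libraries in each group. Both groups were serum-starved, and no library of serum-fed cells was analysed here, so the values describe the difference between genotypes under starvation and not the response to starvation. The labels give neither the lesion nor the number of clones behind the knockout, and they do not name separate cultures for the replicates. P-values therefore reflect spread among these 6 libraries only, and that spread may be technical.

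Libraries held 17805417 to 18368760 counts in knockout cells and 16741607 to 17482451 counts in wild-type cells. The targeted gene, listed as Fam160b2, had 410, 394 and 390 counts in knockout replicates 1, 2 and 3, against 440, 375 and 411 counts in wild-type replicates 1, 2 and 3. It did not pass the test (log2 fold change −0.12 ± 0.075 (SE), adjusted p = 0.184 in edgeR's quasi-likelihood test), and reads summed over the gene cannot show a small lesion, so the groups rest on the labels. All 10 fibroblast markers examined were detected, with summed counts of 387073 to 438784 in knockout libraries and 462479 to 474114 in wild-type libraries. Knockout replicate 2 stood apart from the other knockout libraries: its counts differed from theirs by a chi-square of 27.2 and 29.3 per degree of freedom, whereas knockout replicates 1 and 3 differed by 1.72 and wild-type pairs by 1.91 to 2.27. It also held 1560 summed counts of the 5 listed muscle markers, against 12 in each other knockout library and 11 to 21 in wild-type libraries. These were mostly 1071 counts of the skeletal actin gene Acta1 and 405 of the muscle creatine kinase gene Ckm, whose counts were 0 in the other 5 libraries for Ckm and at most 8 for Acta1. The part of this material in the results was not tested, and the calls of the regulators are given with and without knockout replicate 2. Fits without it rest on libraries that differed little within their group. Smaller p-values in those fits reflect that smaller spread and are not stronger evidence of a difference between genotypes.

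The 8 listed genes moved in both directions. The cyclin D3 gene Ccnd3 was 2.08-fold higher in knockout cells, and the INK4 inhibitor gene Cdkn2c was 1.53-fold higher. The cyclin D1 and D2 genes Ccnd1 and Ccnd2, the p27 gene Cdkn1b and Rb1 were lower, by 19.6% to 30.8%. Neither kinase gene passed the test with all libraries. In all, 2 of 8 genes rose, where 30.5% of the 11972 genes tested did, and 4 of 8 fell, where 29.2% of all genes did. Together 6 of 8 were called, against 59.6% of all genes, so the count of calls among these regulators lay close to that of the whole table. The median log2 fold change was −0.30 over the 8 genes and 0.0028 over all genes tested. In all 8 genes the knockout libraries lay wholly on one side of the wild-type libraries, which held for 67.6% of all genes tested. They lay above in 3 genes (34.1% of all genes) and below in 5 (33.5% of all genes). Calls here need an adjusted p (Benjamini-Hochberg, across all 11972 genes) under 0.05, and levels within a gene are given as CPM, counts scaled to a common library total. In bulk RNA, fewer cells that transcribe a gene and less transcript per cell cannot be told apart.

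**Figure D1:**
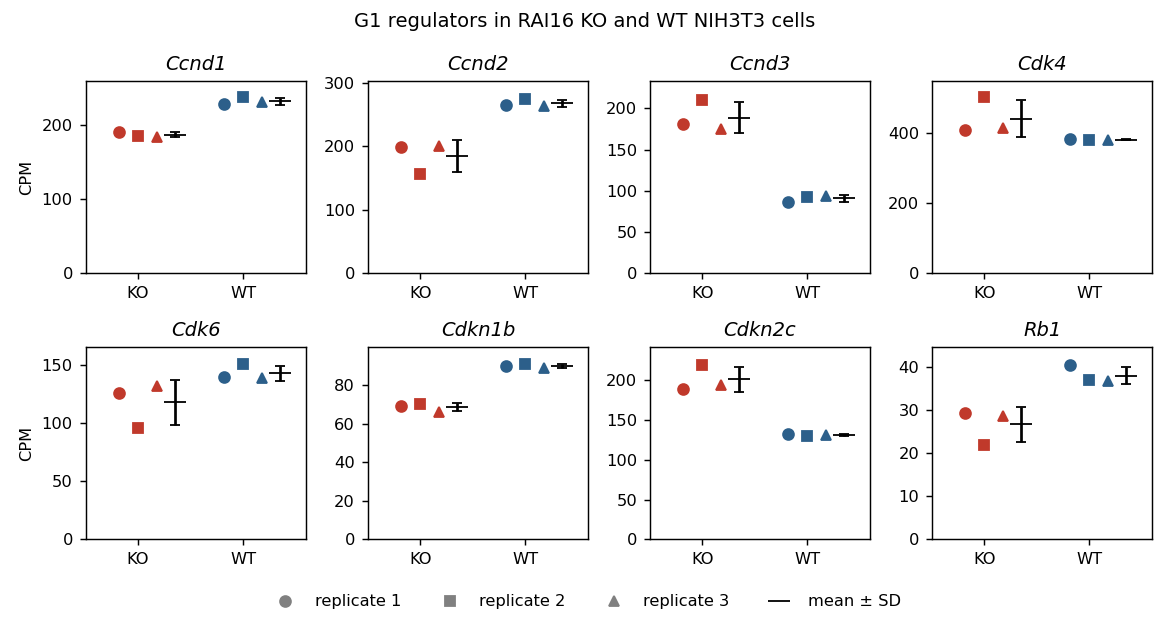
CPM of the 8 listed G1 regulators in each library, with knockout (red) left of wild type (blue), 1 marker shape per replicate, and the mean ± SD in black (n = 3 per group). The groups do not overlap in any panel. The square, knockout replicate 2, lies above the other knockout libraries for Ccnd3 (209.5 CPM), Cdk4 (500.5 CPM) and Cdkn2c (219.2 CPM), and below them for Ccnd2 (156.3 CPM), Cdk6 (96.01 CPM) and Rb1 (22.01 CPM).

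Start-site windows were found for 7 of the 10 genes in RefSeq (build GRCm38.p6), each covering 250 bases before to 50 bases after an annotated start. Those of Ccnd3 and Cdkn2c, which rose, and of Cdkn1b, which fell, are printed here because these genes moved in opposite directions. That of Cdk4, which did not pass the test, is printed as the most abundant of the regulators per length. Both annotated starts of Cdkn2c are shown, and the second of Ccnd3. Capitals mark matches, on either strand, to 7 motifs. The E-box was searched as CACGTG. The GC box was searched as GGGCGG. The CCAAT box was searched by the letters of its name. The core of the CRE, a cyclic AMP response element, was searched as TGACGT. E2F-type cores were searched as TTTCGCG, as a variant spelled TTTGGCG, and as another variant spelled TTTCCCG. The counts of a gene pool all its starts, so they do not say which start was used.
Ccnd3, second start, chr17:47593217-47593516, plus strand: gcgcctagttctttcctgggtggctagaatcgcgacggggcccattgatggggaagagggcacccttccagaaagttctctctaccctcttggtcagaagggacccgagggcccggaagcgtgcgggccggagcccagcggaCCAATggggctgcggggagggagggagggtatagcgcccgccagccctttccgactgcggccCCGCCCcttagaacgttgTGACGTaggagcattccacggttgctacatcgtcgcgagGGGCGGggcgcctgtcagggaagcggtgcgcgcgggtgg
Cdkn2c, first start, chr4:109666707-109667006, minus strand: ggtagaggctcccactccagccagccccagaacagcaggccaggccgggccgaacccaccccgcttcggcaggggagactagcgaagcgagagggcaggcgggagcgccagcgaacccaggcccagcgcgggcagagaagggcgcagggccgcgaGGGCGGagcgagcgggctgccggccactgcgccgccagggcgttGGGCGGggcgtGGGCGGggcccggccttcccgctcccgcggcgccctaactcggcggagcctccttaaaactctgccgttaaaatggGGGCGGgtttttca
Cdkn2c, second start, chr4:109665323-109665622, minus strand: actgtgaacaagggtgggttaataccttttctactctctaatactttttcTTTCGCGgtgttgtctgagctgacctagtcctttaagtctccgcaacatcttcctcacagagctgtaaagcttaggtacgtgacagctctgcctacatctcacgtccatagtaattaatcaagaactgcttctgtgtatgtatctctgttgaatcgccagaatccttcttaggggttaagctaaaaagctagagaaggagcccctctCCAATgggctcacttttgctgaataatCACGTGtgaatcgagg
Cdk4, start, chr10:127063285-127063584, plus strand: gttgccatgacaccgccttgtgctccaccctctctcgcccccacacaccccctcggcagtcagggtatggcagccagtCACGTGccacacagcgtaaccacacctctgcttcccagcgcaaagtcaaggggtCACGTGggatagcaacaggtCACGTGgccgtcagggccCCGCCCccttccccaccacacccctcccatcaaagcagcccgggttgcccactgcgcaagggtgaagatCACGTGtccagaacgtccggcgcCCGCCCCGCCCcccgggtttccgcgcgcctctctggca
Cdkn1b, start, chr6:134920151-134920450, plus strand: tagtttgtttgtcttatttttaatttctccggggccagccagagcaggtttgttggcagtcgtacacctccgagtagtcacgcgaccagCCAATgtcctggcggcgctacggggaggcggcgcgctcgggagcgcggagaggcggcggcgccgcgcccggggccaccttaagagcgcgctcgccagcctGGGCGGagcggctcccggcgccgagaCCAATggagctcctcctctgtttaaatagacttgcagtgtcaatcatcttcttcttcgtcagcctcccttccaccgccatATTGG

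No motif searched occurs in all 5 printed windows. The Cdk4 window holds 4 copies of the E-box, the site bound by MYC and related factors, at positions 79, 133, 153 and 240 counted from 1 at the 5′ end of the window, and 7.15% of all 32851 windows hold at least 1 copy. Its 3 GC boxes start at positions 171, 263 and 268, the last 2 of which share a base. The first Cdkn2c window holds 4 GC boxes and no other motif searched, whereas its second window holds 1 E-box, 1 CCAAT box and the E2F-type core TTTCGCG, which 0.849% of all windows hold. The Ccnd3 window has 2 GC boxes, 1 CCAAT box and 1 CRE core, and its first window, not printed, has 2 GC boxes alone. GC boxes occur in 35.7% of all windows, CCAAT boxes in 37.4% and CRE cores in 7.51%. The Cdkn1b window, of a gene that fell, has 3 CCAAT boxes and 1 GC box. The other E2F-type cores occur in 1.56% (TTTGGCG) and 3.39% (TTTCCCG) of windows and in none of those printed. These matches are descriptions of the sequence and not sites of binding.

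Of the D-type cyclins, Ccnd3 changed most. It stood at 181.1, 209.5 and 175.2 CPM in knockout replicates 1, 2 and 3, against 86.29, 92.74 and 93.24 CPM in wild-type replicates 1, 2 and 3. Every knockout library lay far above every wild-type library. Ccnd3 averaged 188.6 ± 18.3 CPM in knockout cells and 90.8 ± 3.87 CPM in wild-type cells (SD, n = 3 each), and its log2 fold change was 1.06 ± 0.079 (SE; 95% interval 0.88 to 1.23, adjusted p = 6.74e-06, edgeR). Without knockout replicate 2, the highest library, the log2 fold change was 0.97 (adjusted p = 5.41e-31, edgeR). That smaller p-value came with a smaller fold and a smaller spread among the libraries left. The annotation also holds a Ccnd3 pseudogene, Ccnd3-ps, not listed in the tables, which could share reads with Ccnd3. Cyclin D3 is the D-type cyclin best known from lymphocyte precursors and from cells that leave the cycle to differentiate.

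Ccnd1 and Ccnd2 moved the other way. Ccnd1, the D-type cyclin best known as a target of mitogen signalling in fibroblasts, stood at 190.2, 184.9 and 183.9 CPM in knockout replicates 1, 2 and 3, against 228.2, 237.0 and 230.1 CPM in wild-type replicates 1, 2 and 3. The spread within each group was small beside the gap, and knockout replicate 2 lay between the other knockout libraries. Its log2 fold change was −0.32 ± 0.052 (SE; 95% interval −0.43 to −0.20, adjusted p = 0.000803, edgeR), and −0.31 without knockout replicate 2 (adjusted p = 3.71e-12). Ccnd2 stood at 198.7, 156.3 and 201.2 CPM in knockout replicates 1, 2 and 3, against 266.0, 274.7 and 263.1 CPM in wild-type replicates 1, 2 and 3. All knockout libraries lay below all wild-type libraries, and replicate 2 lay lowest. The log2 fold change of Ccnd2 was −0.53 ± 0.094 (SE; 95% interval −0.74 to −0.32, adjusted p = 0.00112), and −0.42 without knockout replicate 2 (adjusted p = 1.47e-17).

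Because the genes differ in length, levels between genes are compared here in the deposited FPKM, which scales counts by gene length and library total. The share of Ccnd3 in the summed FPKM of the D cyclins was 49.2%, 55.1% and 48.8% in knockout replicates 1, 2 and 3, against 27.04%, 27.75% and 28.55% in wild-type replicates 1, 2 and 3. Per length, Ccnd3 was thus the leading D cyclin transcript in each knockout library and Ccnd1 in each wild-type library. In CPM, Ccnd2 led in each wild-type library and in knockout replicates 1 and 3, and Ccnd3 led in knockout replicate 2. The share of Ccnd1 averaged 33.6% ± 1.09 in knockout cells and 47.3% ± 0.339 in wild-type cells, and that of Ccnd2 averaged 15.3% ± 2.46 in knockout cells and 24.96% ± 0.422 in wild-type cells (SD, n = 3 each). The summed FPKM of the 3 cyclins was 147.6 ± 5.17 in knockout cells and 129.6 ± 3.06 in wild-type cells, and it did not overlap between groups. In CPM, which leaves out gene length, the sum lay lower in each knockout library than in each wild-type library. The leading cyclin and the direction of the sum thus depend on the scaling by length. Without knockout replicate 2, the mean share of Ccnd3 in knockout cells was 49.0%. These shares are scores over chosen genes and carry no test.

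**Figure D2:**
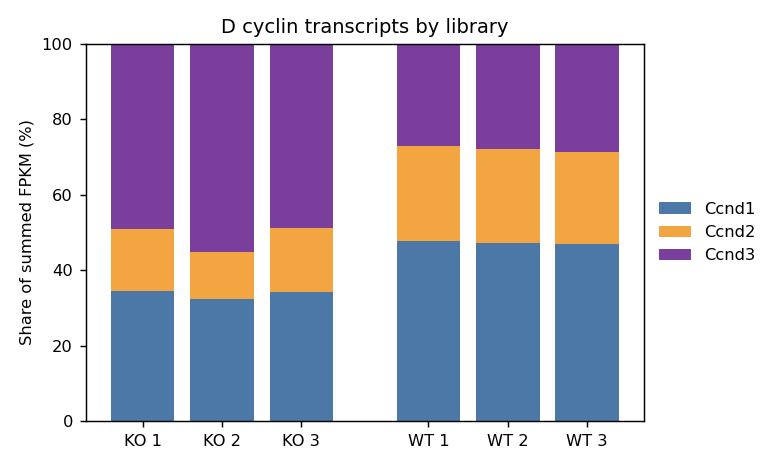
Share of Ccnd1, Ccnd2 and Ccnd3 in their summed FPKM, in percent, for each knockout library (left) and each wild-type library (right). Ccnd3 takes 48.8% to 55.1% in knockout libraries and 27.04% to 28.55% in wild-type libraries.

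The kinase genes gave smaller differences, and their calls changed with the libraries used. Cdk4 stood at 408.6, 500.5 and 412.2 CPM in knockout replicates 1, 2 and 3, against 382.6, 378.6 and 380.7 CPM in wild-type replicates 1, 2 and 3. All knockout libraries lay above all wild-type libraries, but replicate 2 stood far above the other knockout libraries. The log2 fold change of Cdk4 was 0.21 ± 0.082 (SE), its 95% interval reached down to 0.03 and up to 0.40, and it did not pass the test (adjusted p = 0.0505, edgeR). Without knockout replicate 2 it was 0.11 and passed (adjusted p = 0.000833), and it also passed without knockout replicate 1 (0.26, adjusted p = 0.0319) or knockout replicate 3 (0.26, adjusted p = 0.0419). It did not pass without wild-type replicate 1, 2 or 3 (adjusted p = 0.12, 0.132 and 0.129, edgeR). Cdk4 overlaps the gene Tspan31 in the annotation, which rose by 0.76 ± 0.090 on the log2 scale (adjusted p = 0.00011). The sources used here do not give the strand setting of the counting, so reads of the shared stretch may not be told apart. The same holds for Ccnd3 with Bysl (log2 fold change 0.25) and for Ccnd1 with LTO1 (0.24), and the part of shared reads in these values was not tested.

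Cdk6 mirrored Cdk4 in direction. It stood at 126.4, 96.01 and 132.3 CPM in knockout replicates 1, 2 and 3, against 139.6, 150.8 and 139.4 CPM in wild-type replicates 1, 2 and 3. The groups did not overlap, and replicate 2 was again the extreme knockout library. Its log2 fold change was −0.28 ± 0.11 (SE; 95% interval −0.53 to −0.03), and it did not pass the test (adjusted p = 0.0559, edgeR). Without knockout replicate 2 it was −0.15 (adjusted p = 0.000745), and without knockout replicate 3 it was −0.37 (adjusted p = 0.0263). It did not pass without knockout replicate 1 (adjusted p = 0.0514) or without wild-type replicate 1, 2 or 3 (0.106, 0.169 and 0.107, edgeR). Cdk4 was by far the more abundant kinase transcript per length, with 311.4 ± 38.6 FPKM in knockout cells and 266.9 ± 1.22 FPKM in wild-type cells, against 9.80 ± 1.56 FPKM of Cdk6 in knockout cells and 11.8 ± 0.543 FPKM in wild-type cells (SD, n = 3 each). Cdk6 made up 2.20% to 3.63% of the summed FPKM of both kinases in knockout libraries and 4.11% to 4.47% in wild-type libraries.

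The inhibitor genes moved apart from each other. Cdkn1b, which encodes p27, stood at 68.98, 70.07 and 66.05 CPM in knockout replicates 1, 2 and 3, against 89.7, 91.0 and 88.7 CPM in wild-type replicates 1, 2 and 3. The groups lay well apart, and replicate 2 did not stand out. Its log2 fold change was −0.39 ± 0.054 (SE; 95% interval −0.52 to −0.27, adjusted p = 0.000264, edgeR), and −0.41 without knockout replicate 2 (adjusted p = 8.29e-12). Cdkn2c, which encodes the INK4 inhibitor p18, stood at 189.5, 219.2 and 193.9 CPM in knockout replicates 1, 2 and 3, against 132.9, 129.3 and 131.1 CPM in wild-type replicates 1, 2 and 3. Every knockout library lay above every wild-type library, with replicate 2 the highest. The log2 fold change of Cdkn2c was 0.62 ± 0.068 (SE; 95% interval 0.46 to 0.77, adjusted p = 7.08e-05), and 0.55 without knockout replicate 2 (adjusted p = 4.47e-21).

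Set against each other per length, the inhibitor transcripts gave a ratio of Cdkn2c to Cdkn1b FPKM of 2.93, 3.34 and 3.13 in knockout replicates 1, 2 and 3, against 1.58, 1.52 and 1.58 in wild-type replicates 1, 2 and 3. Cdkn2c was the more abundant of the pair in every library. The summed D cyclin FPKM stood at 5.12, 5.20 and 5.21 times the Cdkn1b FPKM in knockout replicates 1, 2 and 3, against 3.41, 3.52 and 3.53 times in wild-type replicates 1, 2 and 3, so the ratio was higher in each knockout library. The summed FPKM of Cdk4 and Cdk6 over that of Cdkn1b and Cdkn2c averaged 2.72 ± 0.117 in knockout cells and 2.93 ± 0.012 in wild-type cells (SD, n = 3 each), with each knockout library (2.64 to 2.85) below each wild-type library (2.92 to 2.94). Transcript ratios do not give protein levels, and p27 in particular is known to be regulated by proteolysis.

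Of the INK4 genes at the Cdkn2a-Cdkn2b locus, no value can be given. Every gene listed in the tables has at least 1 count in the 6 libraries together, and the tables do not say why a gene is not listed. Of 7 genes that neighbour the locus, 7 are listed and 6 were tested, with 2 higher, 2 lower and 2 not called (4 higher and 2 lower without knockout replicate 2). Mtap, the methylthioadenosine phosphorylase gene beside the locus, was abundant, at 824.2 ± 26.6 CPM in knockout cells and 657.7 ± 13.7 CPM in wild-type cells (SD, n = 3 each; log2 fold change 0.33 ± 0.055 (SE), adjusted p = 0.000827, edgeR). Dmrta1, a transcription factor gene on the other side, had 0 counts in all knockout libraries and 1 count in wild-type replicate 2. Elavl2, encoding an RNA-binding protein, fell by 1.76 ± 0.15 on the log2 scale, and Focad fell by 0.43 ± 0.11.

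Among regulators of the INK4 locus, which include Polycomb proteins, 2 of 11 tested genes rose and 4 fell, with a median log2 fold change of −0.13. Over all genes tested, 30.5% rose and 29.2% fell. The list counted 2 rises and 5 falls without knockout replicate 2, and 1 and 3 in DESeq2. The Polycomb repressor genes Rnf2 and Bmi1 fell by 0.82 ± 0.062 and 0.19 ± 0.058 on the log2 scale, and the ETS factor gene Ets2 by 0.48 ± 0.056. Cbx7, encoding a chromobox reader of Polycomb marks, rose by 0.79 ± 0.10, and Ezh2, the histone methyltransferase gene, by 0.18 ± 0.060.

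Rb1 encodes the substrate of the CDK4 and CDK6 kinases. It stood at 29.31, 22.01 and 28.66 CPM in knockout replicates 1, 2 and 3, against 40.4, 36.93 and 36.71 CPM in wild-type replicates 1, 2 and 3. All knockout libraries lay below all wild-type libraries, with replicate 2 the lowest. Rb1 averaged 26.7 ± 4.04 CPM in knockout cells and 38.01 ± 2.07 CPM in wild-type cells (SD, n = 3 each), and the log2 fold change of Rb1 was −0.51 ± 0.11 (SE; 95% interval −0.76 to −0.27, adjusted p = 0.00307, edgeR). It was −0.39 without knockout replicate 2 (adjusted p = 9.51e-07). The receptor gene Lpar6 overlaps Rb1 in the annotation, and Lpar6 had 64, 58 and 66 counts in knockout replicates 1, 2 and 3 and 113, 103 and 104 counts in wild-type replicates 1, 2 and 3.

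Rb1 lies on chromosome 14 close to the targeted gene, with 8 tested genes between Rb1 and Fam160b2 in the gene order of RefSeq (GRCm38.p6, used for gene order only). Of these 8 genes, 0 were higher and 6 lower in knockout cells, with a median log2 fold change of −0.82. Among the 20 tested genes nearest to Rb1, 10 on each side, 0 rose and 16 fell, with a median of −0.74. The fall of Rb1 (−0.51) was thus no larger than the median of its neighbours, whereas all 400 tested genes of the chromosome had a median of −0.11. The 10 tested genes beyond the higher-coordinate end of the stretch from Fam160b2 to Rb1 had a median of −0.77. The 10 beyond its lower-coordinate end had a median of −0.69. Other whole chromosomes were shifted too, with medians from −0.49 (chromosome 1) to 0.28 (chromosome 8). Rb1 and its neighbourhood moved together in these libraries, and the part of this shift in the Rb1 value was not tested.

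Around the other regulators the medians lay nearer to 0. The 20 genes around Ccnd3 had a median log2 fold change of 0.02, with 4 higher and 6 lower. Those around Cdkn2c had a median of −0.04, with 3 higher and 7 lower, and those around Cdkn1b a median of 0.07, with 3 higher and 5 lower. Those around Ccnd2 had a median of −0.04, with 5 higher and 7 lower. Ccnd1, near a chromosome end and with 13 genes in its window, fell where 8 of these rose and 2 fell (median 0.25). Cdk4, at 0.21, lay at the median of its own window, also 0.21, in which 11 of 20 genes rose and 2 fell. The 10 genes beside Cdk6, which has no tested gene before it on its chromosome in this order, had a median of −0.01.

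Knockout replicate 2 deviated with gene length, and the regulators followed that pattern in part. Among the shortest of 5 equal length classes of the tested genes its median log2 CPM lay 0.26 above the mean of knockout replicates 1 and 3, and in the longest class it lay at −0.28 relative to them, whereas replicates 1 and 3 differed from each other by at most 0.01 in the median of any class. Cdk4, the shortest of the regulators with a derived length of 1420 bases, lay 0.29 above in replicate 2, and Cdk6, the longest with 12100 bases, lay at −0.43. Rb1 and Ccnd2, of 4960 and 8245 bases, lay at −0.40 and −0.36, and Ccnd1, of intermediate length with 3768 bases, at −0.02. The value of Rb1 was lower than the median of its own length class, −0.11, and than that of the longest class. Lengths were derived from the deposited counts and FPKM and are known up to a common factor. Across all tested genes, the knockout over wild-type fold also shifted with length, with a median log2 fold change of 0.135 in the shortest class and −0.16 in the longest, or 0.04 and −0.07 without knockout replicate 2.

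**Figure D3:**
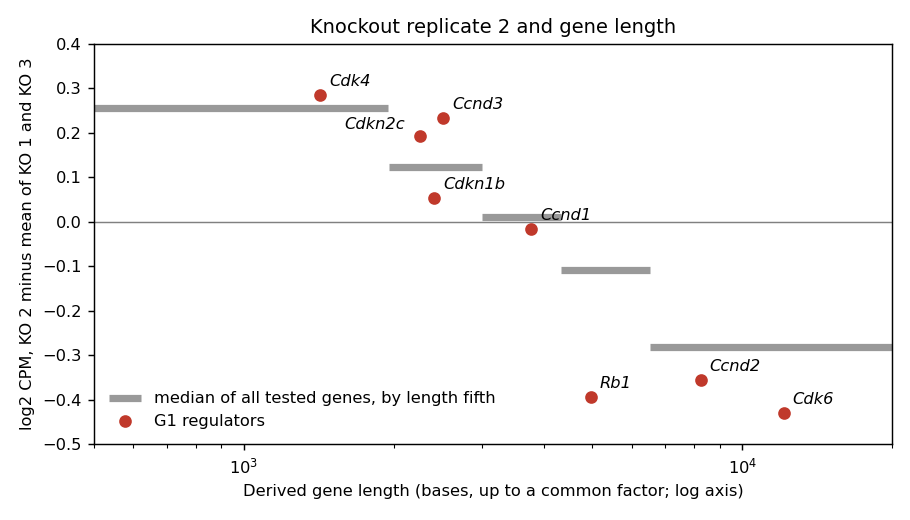
Difference in log2 CPM between knockout replicate 2 and the mean of knockout replicates 1 and 3 (vertical axis) against derived gene length (log axis, up to a common factor). Grey bars are medians of all tested genes in each of 5 length classes, drawn within the axis range, and red points are the 8 regulators, which run from 0.29 for Cdk4 to −0.43 for Cdk6.

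With the smooth length trend removed in each library, an alternative chosen after seeing the data, the calls for Ccnd1, Ccnd2, Ccnd3, Cdkn1b, Cdkn2c and Rb1 stayed as they were. Their log2 fold changes became −0.34, −0.40, 0.98, −0.47, 0.53 and −0.48. Cdk4 lay at 0.09 (adjusted p = 0.0461) and Cdk6 at −0.08 (adjusted p = 0.139), each less than 0.10 in size. Under this setting 7 of 8 regulators were called, where 67.1% of all genes were: 3 were higher, against 34.0% of all genes, and 4 lower, against 33.1%. Without knockout replicate 2 and with no length term, all 8 were called, where 71.3% of all genes were: 3 were higher, against 36.1% of all genes, and 5 lower, against 35.1%.

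**Figure D4:**
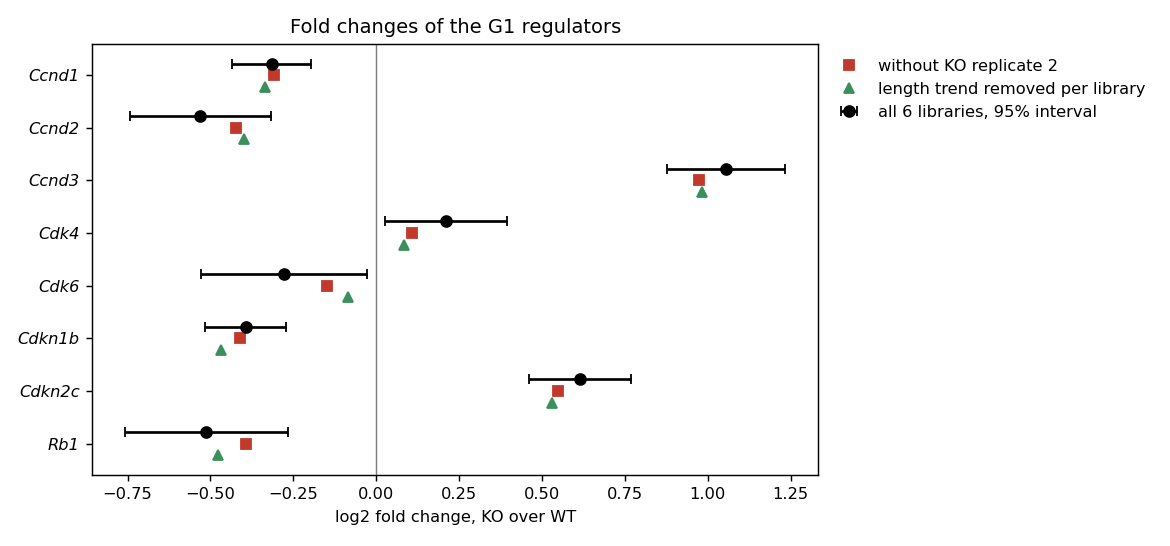
Log2 fold change of each regulator, knockout over wild type, with all 6 libraries (black, 95% interval), without knockout replicate 2 (red squares) and with the length trend removed per library (green triangles). Ccnd3 (1.06) and Cdkn2c (0.62) lie right of 0 throughout, and Cdk4 and Cdk6 move toward 0 in both alternatives.

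In the order of FPKM levels, Cdk4 led in both groups and Cdk6 and Rb1 came last. In knockout cells the order was Cdk4 (311.4 FPKM), Cdkn2c (89.5), Ccnd3 (75.5), Ccnd1 (49.6), Cdkn1b (28.5), Ccnd2 (22.6), Cdk6 (9.80) and Rb1 (5.39), and no neighbours in it had overlapping ranges. In wild-type cells it was Cdk4 (266.9 FPKM), Ccnd1 (61.3), Cdkn2c (57.9), Cdkn1b (37.2), Ccnd3 (36.0), Ccnd2 (32.4), Cdk6 (11.8) and Rb1 (7.63). There, Cdkn1b and Ccnd3 overlapped (36.7 to 37.7 and 34.2 to 37.0 FPKM). Among all 16000 listed genes Ccnd3 ranked 774 by mean FPKM in knockout cells and 1816 in wild-type cells, and Cdkn1b 2482 in knockout cells and 1742 in wild-type cells.

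Genes known to act downstream of the G1 regulators were counted in the same way, beside 30.5% of all tested genes called higher and 29.2% called lower. Of 16 replication genes known as E2F targets, 11 rose, while 2 fell (10 and 4 without knockout replicate 2), with a median log2 fold change of 0.55. Rrm2, of ribonucleotide reductase, rose by 1.30 ± 0.068 on the log2 scale, the thymidine kinase gene Tk1 by 1.29 ± 0.10 and the helicase gene Mcm2 by 1.04 ± 0.063. The helicase genes Mcm3 and Mcm6 fell by 0.60 ± 0.059 and 0.19 ± 0.060. All 6 proliferation markers rose, with a median of 0.59. Mki67, encoding the Ki-67 antigen, averaged 368.9 ± 66.7 CPM in knockout cells and 241.0 ± 9.58 CPM in wild-type cells (SD, n = 3 each), while log2 rises were 1.05 ± 0.064 for Plk1 and 0.99 ± 0.067 for Aurkb, both mitotic kinases.

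The cyclin E and cyclin A module counted 4 rises and 2 falls among 8 genes, with a median of 0.22. Ccne1 and Ccne2, the E-type cyclins that activate CDK2 after the D cyclins, rose by 0.87 ± 0.073 and 0.74 ± 0.090 on the log2 scale, and Ccna2, cyclin A2, by 0.54 ± 0.061. Ccne1 averaged 39.9 ± 1.85 CPM in knockout cells and 21.8 ± 1.26 CPM in wild-type cells (SD, n = 3 each). Of the 3 genes of the CDK-activating kinase, 2 fell. Its cyclin gene Ccnh averaged 13.0 ± 1.27 CPM in knockout cells and 32.2 ± 0.745 CPM in wild-type cells, a fall of 1.31 ± 0.086 on the log2 scale, and Cdk7 fell by 0.18 ± 0.063. The third, Mnat1, did not pass the test and its groups overlapped (log2 fold change −0.12 ± 0.11, adjusted p = 0.393, edgeR). Of the 8 genes of the module, 3 were lower without knockout replicate 2, and 1 was lower with the length trend removed or in DESeq2.

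Pocket proteins, E2F and DP factors counted 8 rises and 3 falls among 11 tested genes, with a median of 0.31. The counts were the same without knockout replicate 2, and 8 and 2 with the length trend removed. E2f1 and E2f2, activators of replication genes, rose by 0.85 ± 0.074 and 0.60 ± 0.10 on the log2 scale, and their partner gene Tfdp1 by 0.56 ± 0.056. E2f3 and the other partner gene Tfdp2 fell by 0.35 ± 0.086 and 0.45 ± 0.074, and the pocket protein gene Rbl1 by 0.32 ± 0.088. Among 7 genes of the MuvB core with B-Myb and FoxM1, 3 rose and 1 fell (median 0.07). Foxm1 and Mybl2, which drive mitotic genes with MuvB, rose by 0.44 ± 0.075 and 0.42 ± 0.097, Rbbp4 rose by 0.26 ± 0.066, and the MuvB subunit gene Lin9 fell by 0.48 ± 0.11.

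Genes that turn over D cyclins and p27 counted 7 rises and 2 falls among 14 (8 and 4 without knockout replicate 2), with a median of 0.22. Usp2, a deubiquitinase known to stabilise cyclin D1, rose by 1.17 ± 0.088 on the log2 scale, and Cks1b, the cofactor with which SKP2 recognises p27, by 0.54 ± 0.095. Fbxo31, an F-box gene that targets cyclin D1, rose by 0.45 ± 0.073. Rnf123, a subunit of a ubiquitin ligase for p27, fell by 0.41 ± 0.072 and the F-box gene Fbxo4 by 0.33 ± 0.085. Of the chaperones that fold CDK4, 2 of 3 rose and 0 fell (2 and 1 without knockout replicate 2, median 0.355 with all libraries), Hsp90aa1 by 0.51 ± 0.057 and Hsp90ab1 by 0.35 ± 0.057.

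Of the other CDK inhibitor genes, Cdkn1a, which encodes p21, averaged 168.7 ± 7.15 CPM in knockout cells and 179.3 ± 4.65 CPM in wild-type cells (SD, n = 3 each), and it did not pass the test (log2 fold change −0.09 ± 0.058 (SE), adjusted p = 0.216, edgeR). Without knockout replicate 2 its log2 fold change was −0.12 (adjusted p = 0.00159). Cdkn2d, the remaining INK4 gene, averaged 12.6 ± 1.85 CPM in knockout cells and 9.81 ± 0.994 CPM in wild-type cells and passed with all libraries (0.36 ± 0.13, adjusted p = 0.0409). It did not pass without knockout replicate 2 (0.23, adjusted p = 0.0727). Cdkn1c had 2 counts in knockout replicate 2 and 0 in the other 5 libraries and was not tested.

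**Figure D5:**
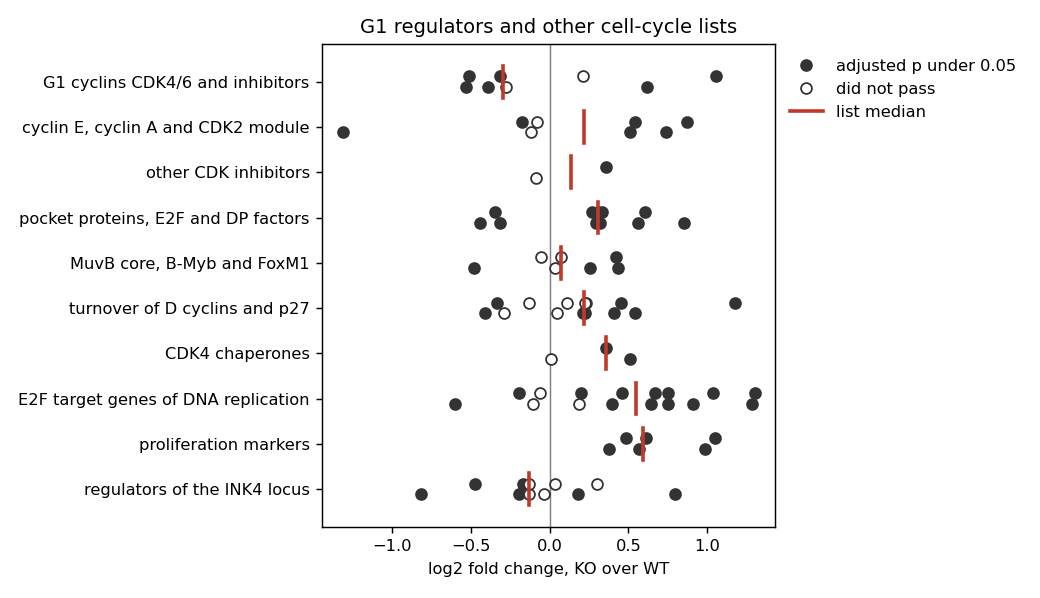
Log2 fold changes, knockout over wild type, of the 8 G1 regulators (top row) and of tested genes in 9 further lists, with filled points for adjusted p under 0.05 and red bars at list medians. Medians run from −0.30 for the regulators to 0.59 for the proliferation markers.

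The genes whose profiles over the 6 libraries were most like that of Ccnd3 were Park7, Calr and Arf4, with root mean square differences of 0.017, 0.029 and 0.036 in log2 CPM after centring each gene on its mean. For Ccnd2, which had the lowest log2 fold change of the regulators with all libraries, they were Evi5, Pds5a and Tcf4, with differences of 0.019, 0.022 and 0.024. With the length trend removed, Rb1 (−0.48) and Cdkn1b (−0.47) lay below Ccnd2 (−0.40), and without knockout replicate 1 Rb1 (−0.587) lay just below Ccnd2 (−0.585). The similar genes were picked for likeness, so their agreement is no test.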

How the data were processed

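The genes, lists and alternatives were chosen with earlier results of these data known. Per the labels' protocols, total RNA was extracted with TRIzol and polyadenylated RNA was made into stranded libraries. The authors deposited whole-number read counts for each gene, and an FPKM table that equals those counts divided by the library total and a length per gene within 8.04e-05%. The submitters' processing notes name build GRCm39 and the tools HTSeq, DESeq, HISAT2, Trimmomatic and Cufflinks. Their versions, settings and strand option, and the annotation release, are not stated in those notes. Columns were matched to samples by title, and 0 columns belonged to other samples.

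From the deposited counts, genes were kept with filterByExpr, TMM scaling was applied, and knockout was set against wild type, with no other term, by the quasi-likelihood test of edgeR 4.0.16 in R 4.3.3, with p-values adjusted over all 11972 genes. Each standard error is the size of the log2 change over the root of its F value. The test was checked on counts simulated with the same relative spread for all genes and no deviating library. That check does not cover a library such as knockout replicate 2. Counts per regulator and library ran from 404 to 9185, but the standard errors did not follow counts alone. Cdk6, with 1762 to 2515 counts, had a standard error of 0.11, and Cdkn1b, with 1173 to 1552, had 0.054. Alternatives used DESeq2 1.42.0, limma 3.58.1 on log2(FPKM + 1) and log2(FPKM + 0.1), other scalings and filters, a replicate block, each library left out, and a length offset. Named genes are all 10 regulators and, per list, up to 3 called genes with the largest rise and up to 3 with the largest fall at a mean of at least 5 CPM. The 17 lists hold 141 entries and no list was tested as a set. Of the other marker lists, knockout libraries held 86 to 108 epithelial, 108 to 137 leukocyte, 85 to 131 endothelial and 32 to 53 neural counts, and wild-type libraries 34 to 44, 68 to 79, 40 to 48 and 223 to 270. The part of these transcripts in the results was not tested.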

Additional observations from a re-analysis of the deposited data

How the results depend on the processing

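Across 14 planned and 2 added alternatives, Ccnd1, Ccnd2, Ccnd3, Cdkn1b, Cdkn2c and Rb1 kept their direction and their side of the threshold, with adjusted p of at most 0.0185. Log2 fold changes ran from −0.34 to −0.30 for Ccnd1, −0.59 to −0.37 for Ccnd2, 0.94 to 1.11 for Ccnd3, −0.47 to −0.37 for Cdkn1b, 0.51 to 0.65 for Cdkn2c and −0.59 to −0.38 for Rb1. Cdk4 kept its direction (0.07 to 0.26, adjusted p 0.000833 to 0.132) and passed under 7 alternatives, and Cdk6 (−0.37 to −0.06, adjusted p 0.000745 to 0.176) passed under 3, namely DESeq2 and the fits without knockout replicate 2 or 3. Over all genes, the calls ran from 3008 to 4323 higher and 2997 to 4259 lower. With CPM in place of FPKM, which leaves out gene length, knockout minus wild type was −6.0 percentage points for the Ccnd1 share of D cyclins, −12.3 for Ccnd2, 18.3 for Ccnd3 and −6.0 for the Cdk6 share of both kinases, and 1.63 for the ratio of D cyclins to Cdkn1b, against −13.6, −9.63, 23.3, −1.12 and 1.69 with FPKM. With libraries left out in turn, the Cdk6 share difference ran from −1.38 to −0.664, where −0.664 is the value without knockout replicate 2. Replicate numbers did not pair the libraries, since deviations of same-numbered libraries correlated at −0.073, −0.094 and 0.022. With a replicate block, 3371 genes were higher and 3321 lower, and among regulators 2 and 4, and no regulator's call changed, with Ccnd3 at 1.05, Cdk4 at 0.20 and Cdk6 at −0.29. No knockout library correlated best with the wild-type library of its own number, and of the wild-type libraries only replicate 3 did.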
